A study of Rattus norvegicus with 9 samples.

Results

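Adrenergic receptors are the cell-surface proteins through which noradrenaline and adrenaline act. 6 of their genes were taken by name from the deposited count table of the rat frontal cortex: the alpha-1 receptor genes Adra1a, Adra1b and Adra1d, the alpha-2 receptor genes Adra2a and Adra2c, and the beta-1 receptor gene Adrb1. These 6 genes stood among 37209 in the table, which lists 9 adrenergic receptor genes, and all 6 were among the 16837 genes with enough counts to be tested. Noradrenaline reaches the cortex through axons of the locus coeruleus, a brainstem nucleus, so the receptors are made in the tissue sampled while the neurons that release their ligand have their cell bodies elsewhere. Alpha-1 receptors couple through Gq to phospholipase C and calcium release, alpha-2 receptors through Gi/o to a fall in cyclic AMP and the opening of potassium channels, and beta receptors through Gs to a rise in cyclic AMP. In the prefrontal cortex (PFC), alpha-2A receptors are known for supporting working memory, and alpha-1 receptors are engaged at the high noradrenaline release of stress.

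Total RNA of the frontal cortex was sequenced from 9 male Wistar rats aged 14 weeks, 3 in each of 3 groups. In the maternal separation group (MS; rats B3, B4 and B6) the pups were parted from the mother for 4 h on each day from postnatal day (PND) 1 to PND 21, the day of weaning. The MS+EA rats (C3, C10 and C16) had the same separation and then electroacupuncture (EA) at the GV20 (Baihui) and GV29 (Yintang) points on alternate days between PND 61 and PND 81 under anaesthesia, which the Control and MS rats received as well. The Control litters (A1, A2 and A6) were left with their mothers undisturbed until weaning, and no sham EA group was among these samples. No genetic change was named for any group. The labels do not say whether the rats of a group came from separate litters, so the p-values measure the spread between these rats.

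Library totals were 16153292 to 19007907 counts in Control, 16106381 to 17243320 in MS and 12479905 to 14913736 in MS+EA, so each MS+EA library was smaller than each other library. The share of counts on genes typed as lncRNA was 0.976% to 1.13% in MS+EA, above the 0.798% to 0.964% of the other 6 rats. Levels are given as CPM, the counts of a gene relative to the library total scaled with TMM factors, and are compared for 1 gene across rats. Levels of different genes were not ranked, since transcript lengths were not used here. In bulk tissue, fewer cells of a type and less RNA per cell cannot be told apart.

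The promoters of Adra1b, Adra1d and Adrb1, the 3 genes with an unadjusted p under 0.05 in the comparisons of MS+EA described below, are shown so that the sequence ahead of each start can be read beside the values. They are the 250 bases before the gene start in RefSeq on GRCr8, a later build than the Rnor_6.0 to which the reads were mapped. The windows are chr10:28814348-28814597 on the minus strand for Adra1b, chr3:139262332-139262581 on the minus strand for Adra1d and chr1:265776853-265777102 on the plus strand for Adrb1. Capitals mark motif matches.
Adra1b: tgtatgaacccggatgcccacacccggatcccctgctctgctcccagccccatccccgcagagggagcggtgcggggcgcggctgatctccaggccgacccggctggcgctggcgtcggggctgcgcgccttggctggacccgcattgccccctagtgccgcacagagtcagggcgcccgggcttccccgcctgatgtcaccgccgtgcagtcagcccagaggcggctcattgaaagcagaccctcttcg
Adra1d: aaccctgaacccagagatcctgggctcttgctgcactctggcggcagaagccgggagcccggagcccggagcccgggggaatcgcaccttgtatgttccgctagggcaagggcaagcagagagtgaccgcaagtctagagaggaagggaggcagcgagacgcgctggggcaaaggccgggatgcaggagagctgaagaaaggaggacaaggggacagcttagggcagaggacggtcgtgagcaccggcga
Adrb1: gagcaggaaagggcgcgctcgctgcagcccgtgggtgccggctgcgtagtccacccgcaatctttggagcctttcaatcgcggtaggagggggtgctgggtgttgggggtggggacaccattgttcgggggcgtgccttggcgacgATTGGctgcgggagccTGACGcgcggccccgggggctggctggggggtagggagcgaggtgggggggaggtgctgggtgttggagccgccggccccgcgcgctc

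The RefSeq table matched 5 of the 6 genes, all but Adra1a. GC content was 70.8% for Adra1b, 64% for Adra1d, 72% for Adrb1, 67.6% for Adra2a and 80.4% for Adra2c, against a median of 52% over 27457 promoters of the same length. The 5 windows held 23, 16, 24, 21 and 36 CpG dinucleotides in that order, against a median of 6. Both strands were searched for the cyclic AMP response element TGACGTCA (in 1.70% of all promoters), its half-site TGACG, which the full element contains (19.0%), the E-box CACGTG (5.79%), the GC box GGGCGG (32.4%), the CCAAT box CCAAT (34.3%), the TATA box TATAAA (13.1%) and the D-box TTATGTAA (0.816%). The Adra1b, Adra1d and Adra2a windows held none of these. The Adrb1 window held 1 CRE half-site and 1 CCAAT box, read as ATTGG on the strand shown, and the Adra2c window held 2 GC boxes.

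Among the alpha-1 receptor genes, Adra1b encodes the alpha-1B receptor. Its level was 23.8, 21.2 and 21.9 CPM in Control (A1, A2 and A6 in order), 25.6 (B3), 26.5 (B4) and 22.3 CPM (B6) in MS, and 13.4 (C3), 17.4 (C10) and 18.0 CPM (C16) in MS+EA, the order kept below. All 3 MS+EA rats lay below all 6 other rats, and the Control and MS rats overlapped. The group means were 22.3 CPM ± 1.34 in Control, 24.8 CPM ± 2.21 in MS and 16.2 CPM ± 2.48 in MS+EA (SD, n = 3 each).

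Adra1d encodes the alpha-1D receptor. It was read at 73.0, 61.3 and 74.9 CPM in Control, at 66.5, 67.6 and 65.8 CPM in MS and at 47.9, 61.6 and 41.7 CPM in MS+EA. Every MS+EA rat was below every MS rat, but C10 (61.6 CPM) stood just above Control rat A2 (61.3 CPM). Means were 69.7 CPM ± 7.36, 66.7 CPM ± 0.892 and 50.4 CPM ± 10.2 in Control, MS and MS+EA (SD, n = 3).

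Adra1a, the gene of the alpha-1A receptor, was at 60.2, 67.6 and 69.5 CPM in Control, 60.6, 57.8 and 70.0 CPM in MS, and 59.4, 65.3 and 59.6 CPM in MS+EA. The 3 groups overlapped, with means of 65.8 CPM ± 4.89, 62.8 CPM ± 6.38 and 61.4 CPM ± 3.33 (SD, n = 3).

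The alpha-2 receptors act partly as autoreceptors that limit noradrenaline release. Adra2a was at 21.6, 17.0 and 12.8 CPM in Control, 12.7, 18.5 and 13.9 CPM in MS, and 14.8, 13.3 and 13.7 CPM in MS+EA. The groups overlapped, and the MS+EA rats lay within the range of the Control rats. The SD was 25.6% of the mean in Control (counting error alone would give 5.82%) and 5.89% in MS+EA (7.17%).

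For Adra2c, the alpha-2C receptor gene, the levels were 21.6, 15.0 and 19.0 CPM in Control, 21.1, 17.8 and 16.4 CPM in MS, and 21.7, 12.1 and 9.70 CPM in MS+EA. MS+EA rat C3 was the highest of all 9 and C16 the lowest. Within MS+EA the SD was 43.9% of the mean, against 6.98% from counting error alone, so that the group mean of 14.5 CPM ± 6.37 (SD, n = 3) stood for rats that differed widely.

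Adrb1 encodes the beta-1 receptor. Its levels were 32.2, 29.9 and 33.5 CPM in Control, 26.4, 33.3 and 29.2 CPM in MS, and 25.3, 25.4 and 19.5 CPM in MS+EA. All 3 MS+EA rats were below all 6 other rats, with means of 31.9 CPM ± 1.84 in Control, 29.6 CPM ± 3.48 in MS and 23.4 CPM ± 3.40 in MS+EA (SD, n = 3).

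**Figure D1:**
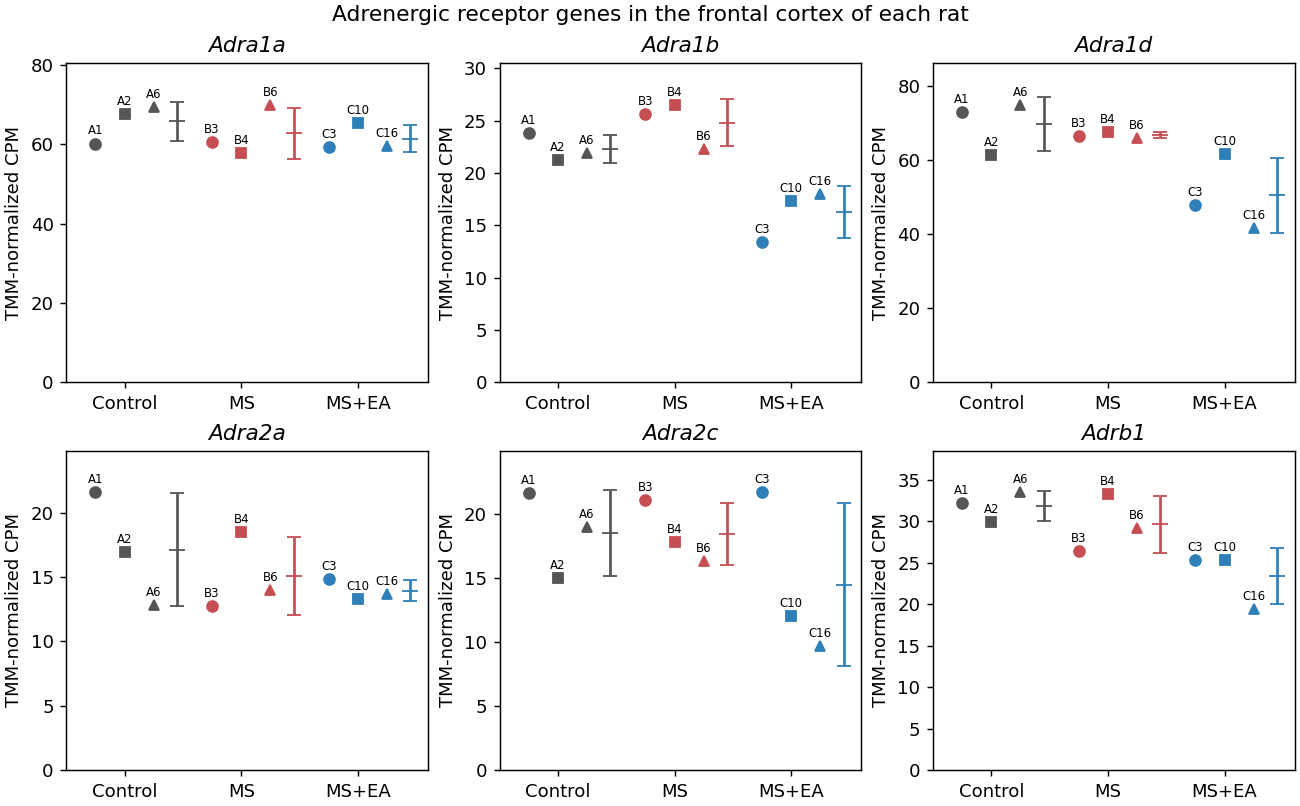
TMM-normalized CPM (vertical axis, from 0) of each of the 6 adrenergic receptor genes in each rat of the Control, MS and MS+EA groups (horizontal axis); points are rats and bars are the group mean ± SD (n = 3). For Adra1b and Adrb1 the 3 MS+EA points lie below the other 6, while for Adra1a, Adra2a and Adra2c the groups overlap.

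Adra2b and Adrb3 did not pass the filter on low counts. Adra2b had 0, 1 and 3 counts in Control, 3, 5 and 3 in MS, and 13, 4 and 6 in MS+EA. The MS+EA mean of 0.549 CPM was 3.11-fold a floor of 3 counts per Control library (0.177 CPM). It is not a lower bound on the difference, since it rests on few counts and most on C3. MS+EA rat C10 was at 0.268 CPM, and Control rat A6 at 0.187 CPM. Adrb3 had 2 to 14 counts in any rat.

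The comparison of MS with Control asks what early separation left in the adult cortex. No difference of a receptor gene between these groups passed the test. Differentially expressed genes were taken at an adjusted p under 0.05 in edgeR's quasi-likelihood test and a fold change above 1.5. None of the 6 genes met this, where 0.0238% of all genes tested did, and DESeq2 (0.45% of genes) and limma-trend (0.0178%) also called 0. At an unadjusted p under 0.05 the count was 0 of 6, against 10.6% of all genes, and all 6 genes overlapped between the groups, where 7.53% of genes were wholly lower in MS and 10% wholly higher. The median log2 fold change was -0.07 for the 6 genes and -0.00 for all genes tested. Adra1b had the highest log2 fold change, 0.15 (SE 0.123, 95% interval -0.11 to 0.42, edgeR adjusted p = 0.700). Adra2a had the lowest, -0.19 (SE 0.184, interval -0.59 to 0.21, edgeR adjusted p = 0.762). For Adra1a the log2 fold change was -0.07 (interval -0.26 to 0.13), for Adra1d -0.06 (-0.33 to 0.20), for Adrb1 -0.10 (-0.36 to 0.16) and for Adra2c -0.01 (-0.52 to 0.51). The intervals of Adra1a, Adra1b, Adra1d, Adra2c and Adrb1 left out a 1.5-fold difference in either direction, and that of Adra2a reached it on the lower side.

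Vessel markers and the noradrenergic neuron markers described below moved with this comparison. The summed level of the endothelial list (5 of its 6 genes are in the table) was 153 to 177 CPM in MS against 121 to 137 CPM in Control, and that of the 6 mural cell genes was 104 to 222 CPM against 81.7 to 88.1 CPM. No gene of either vessel list was at 0 in every rat. The summed meninges list overlapped, at 19.4 to 118 CPM in MS against 17.9 to 25.1 CPM in Control. Yet all 6 of its log2 fold changes were above 0, with a median of 1.33. Within MS each gene of the meninges list was highest in B4, as with Col1a1 at 8.57, 72.8 and 19.8 CPM (B3, B4 and B6). Of the mural genes, Acta2 (13.1, 44.2 and 12.1 CPM), Myh11 and Tagln were also highest in B4, and Pdgfrb, Rgs5 and Kcnj8 in B3. The summed layer 6 and 6b list overlapped too, with 7 of 8 genes below 0, 1 above and a median of -0.59. Of all 16837 genes tested, 8462 were below 0. The part of these markers in the receptor values was not tested.

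The comparison of MS+EA with MS addresses the treatment in separated rats. Adra1b, Adra1d and Adrb1 were lower in every MS+EA rat than in any MS rat, while none of the 6 genes passed the adjusted threshold. The count of differentially expressed genes was 0 of 6 by edgeR, with 0.0178% of all genes called, 0 of 6 by limma-trend, also with 0.0178%, and 1 of 6, Adra1b, by DESeq2, with 0.276%. Below an unadjusted p of 0.05 with a lower level in MS+EA were 3 of 6, against 6.42% of all genes. Groups that did not overlap, with MS+EA lower, were also found for 3 of 6, against 9.6% of all genes. All 6 log2 fold changes were below 0, as were 49.9% of those of all genes, and their median was -0.34 against 0.00 for all genes tested.

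Adra1b had the lowest value, a log2 fold change of -0.61 (SE 0.126, 95% interval -0.89 to -0.34), or 34.6% below MS. Its unadjusted p of 0.000336 from edgeR ranked 27 of 16837 genes, and the edgeR adjusted p was 0.184. DESeq2 gave -0.62 with an adjusted p of 0.00791, and edgeR with every gene of at least 1 count in any rat gave -0.61 with an adjusted p of 0.0185. With that filter 0.277% of all genes were called. Leaving out each rat in turn gave edgeR adjusted p-values from 0.178 to 0.515, and the log2 fold change was smallest, -0.48, without C3.

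For Adra1d the log2 fold change was -0.40 (SE 0.123, interval -0.67 to -0.13, edgeR adjusted p = 0.253), and for Adrb1 it was -0.34 (SE 0.122, interval -0.60 to -0.07, edgeR adjusted p = 0.315). The Adrb1 value was -0.24 without B4 and -0.22 without C16, with unadjusted edgeR p-values of 0.0886 and 0.0789, so its place among the 3 genes under 0.05 rested on each of these rats. Adra2c stood at the same size with a wider error, -0.34 (SE 0.243, interval -0.87 to 0.18, edgeR adjusted p = 0.587). Without C3, whose Adra2c level was the highest of all rats, the Adra2c log2 fold change was -0.75, and without C16, the lowest, it was -0.13. Adra2a was at -0.11 (interval -0.52 to 0.30), and at 0.07 without B4. Adra1a was at -0.03 (interval -0.23 to 0.16), an interval narrow enough to leave out a 1.5-fold difference either way.

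**Figure D2:**
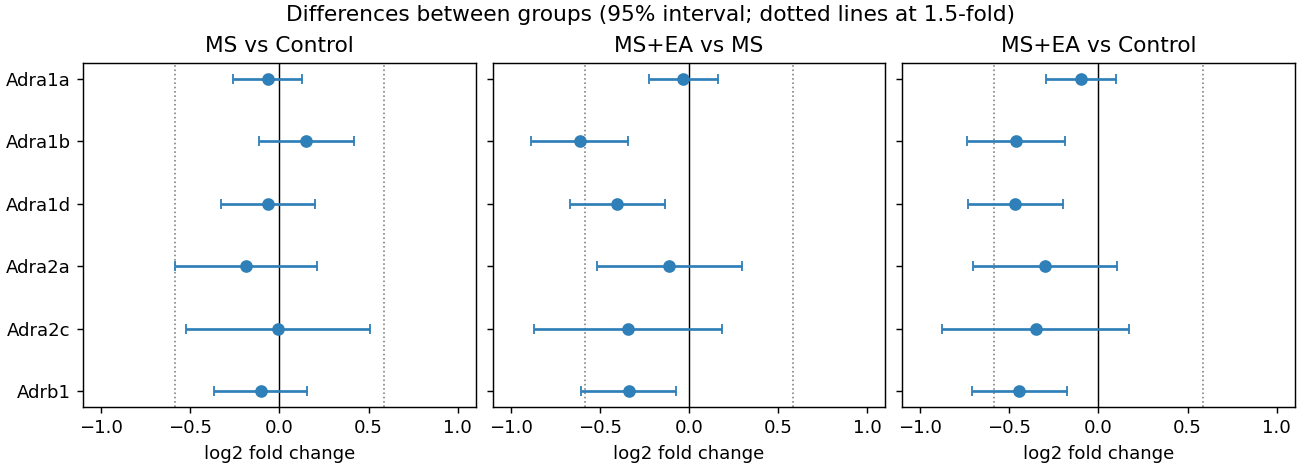
Log2 fold change (horizontal axis) of the 6 adrenergic receptor genes in the 3 comparisons, with the 95% interval from edgeR's fit as bars and dotted lines at a 1.5-fold difference. In both comparisons of MS+EA the intervals of Adra1b, Adra1d and Adrb1 lie below 0, and in MS against Control every interval spans 0.

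The comparison of MS+EA with Control sets the treated rats against undisturbed ones, and it shares its MS+EA rats with the comparison above. Of the 6 genes, 0 were differentially expressed by edgeR, DESeq2 or limma-trend, where 1.37%, 2.07% and 1.35% of all genes were called. On the adjusted p alone 1 of 6, Adra1d, was lower, against 2.19% of all genes. At an unadjusted p under 0.05, 3 of 6 were lower, against 10.6% of all genes, and 2 of 6, Adra1b and Adrb1, did not overlap with Control, against 12.9% of all genes that were wholly lower. The median was -0.40 on the log2 scale, and 0.01 for all genes tested.

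Adra1d fell by 0.47 on the log2 scale, 27.6% below Control (SE 0.123, 95% interval -0.73 to -0.20, edgeR adjusted p = 0.0465), which is short of a 1.5-fold change, and the groups overlapped by C10 and A2. Without C10, when 0.705% of all genes were called, it reached -0.64 with an adjusted p of 0.0183 in edgeR, and adjusted p-values over the omission of each rat ran from there to 0.168, the highest without A1. Adra1b was at -0.46 (SE 0.126, interval -0.73 to -0.19, edgeR adjusted p = 0.0525) and Adrb1 at -0.44 (SE 0.122, interval -0.71 to -0.18, edgeR adjusted p = 0.0544), both just above the threshold. DESeq2 gave adjusted p-values of 0.0179 for Adra1b and 0.0148 for Adrb1 at log2 fold changes of -0.47 and -0.45. Adra2c was at -0.35 (interval -0.88 to 0.17, edgeR adjusted p = 0.421), and without C3, when 1.52% of all genes were called, at -0.76 with an adjusted p of 0.0384 in edgeR. Adra2a was at -0.30 (interval -0.70 to 0.10), and at -0.10 without A1 and -0.46 without A6, the highest and the lowest Control rat. Adra1a was at -0.10 (interval -0.29 to 0.10).

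In the test for any difference between the 3 groups, 0 of 6 genes had an edgeR adjusted p under 0.05, against 2.03% of all genes, and 3 of 6 an unadjusted p under 0.05, against 19.2%. The edgeR adjusted p was 0.0507 for Adra1b, 0.0990 for Adra1d and 0.123 for Adrb1, and 0.575 or more for the other 3 genes. By DESeq2 3 of 6 passed, against 9.08% of all genes, and by limma-trend 1 of 6, against 2.13%.

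**Figure D3:**
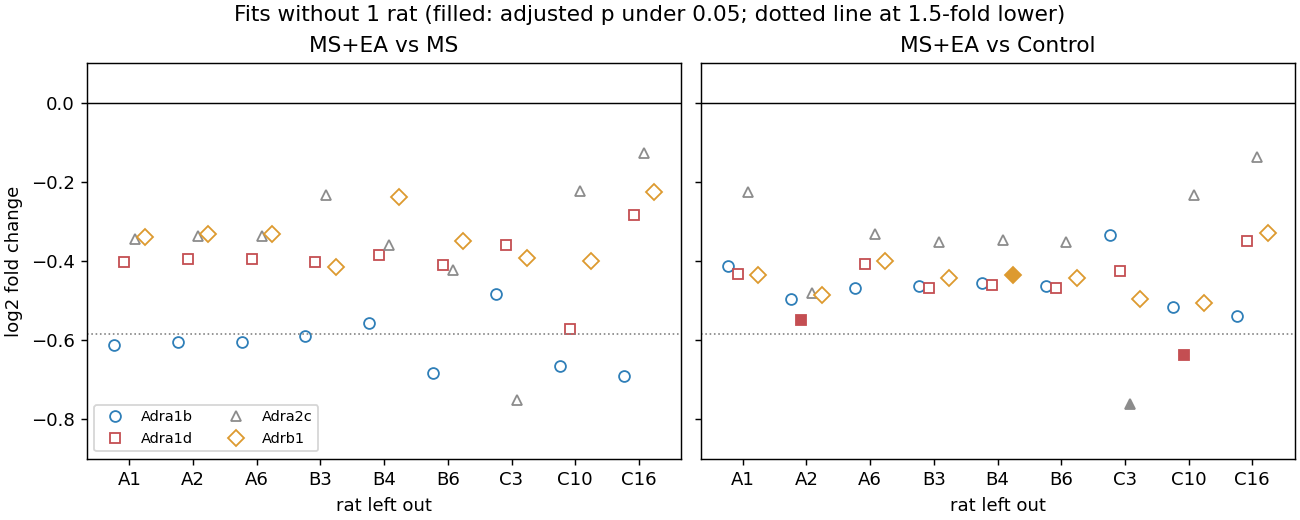
Log2 fold change (vertical axis) of Adra1b, Adra1d, Adra2c and Adrb1 in fits that leave out the rat named on the horizontal axis, for MS+EA against MS and against Control; filled symbols have an adjusted p under 0.05 and the dotted line is a 1.5-fold lower level. Every value is below 0, and Adra2c ranges from -0.76 without C3 to -0.14 without C16 against Control.

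Several features of the MS+EA libraries moved with these lower values. The summed level of 6 glutamatergic neuron genes, none at 0 in any rat, was 3860 to 4005 CPM in MS+EA, below the 4368 to 5142 CPM of Control and the 4492 to 4606 CPM of MS. Of these genes Slc17a7, the vesicular glutamate transporter VGLUT1, was at -0.30 against Control (edgeR adjusted p = 0.0207), and Camk2a, a kinase of excitatory neurons, at -0.36 (edgeR adjusted p = 0.0387). Layer 6 and 6b markers were at 160 to 182 CPM in MS+EA against 131 to 141 CPM in MS, and striatal neuron markers at 251 to 284 CPM against 242 to 250 CPM, while both overlapped with Control. Mural cell genes were at 94.9 to 126 CPM in MS+EA, above Control. Summed levels of the GABAergic, layer 2/3 and 4, layer 5, astrocyte, oligodendrocyte, oligodendrocyte precursor, microglia and meninges lists overlapped between all groups. An overlap of sums can hide shifts of single genes. For the meninges list the median log2 fold change of MS+EA against Control was 0.70, with 4 genes above 0 and 2 below. The part of these markers, of library size and of the lncRNA share in the receptor values was not tested.

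Relative to each other, the alpha-1 genes did not keep a fixed proportion across rats. The counts of Adra1b per count of Adra1a in the same rat were 0.314 to 0.396 in Control, 0.319 to 0.459 in MS and 0.225 to 0.301 in MS+EA, and the MS+EA rats were below all others. Adra1d per Adra1a was 0.906 to 1.21 in Control, 0.941 to 1.17 in MS and 0.700 to 0.944 in MS+EA, with C10 inside the range of the other groups. Being ratios within a library, these do not depend on the scaling between libraries. The 6 genes summed to 225 CPM ± 11.6 in Control, 217 CPM ± 4.29 in MS and 180 CPM ± 16.5 in MS+EA (SD, n = 3), and the MS+EA range of 162 to 195 CPM lay below the 212 CPM of the lowest other rat. Of these summed counts the alpha-1 genes took 70.1%, 71.0% and 71.2% in Control, MS and MS+EA, the alpha-2 genes 15.8%, 15.4% and 15.8%, and Adrb1 14.1%, 13.6% and 13.0%. The Adra1a share was 32.5% to 36.8% in MS+EA and at most 32.2% in any other rat.

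**Figure D4:**
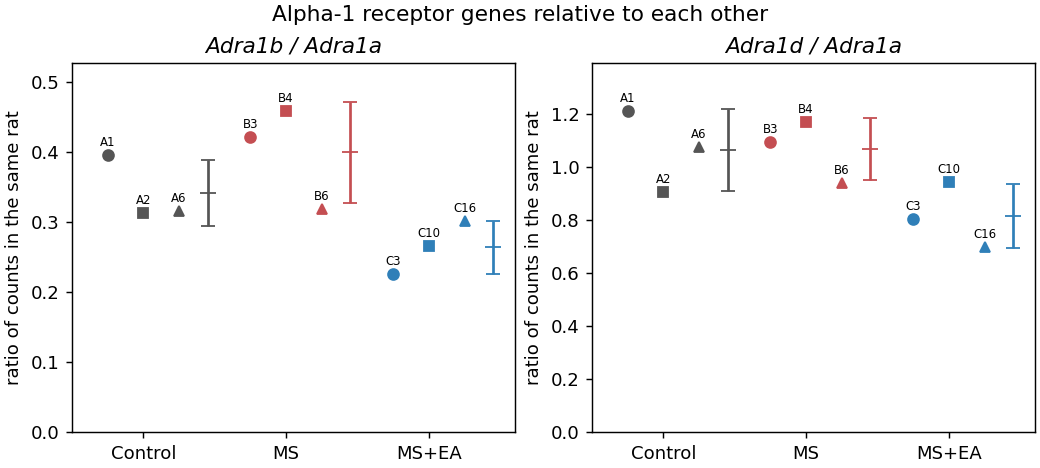
Counts of Adra1b (left) and Adra1d (right) per count of Adra1a in the same rat (vertical axis, from 0), by group; points are rats and bars the mean ± SD (n = 3). The Adra1b ratio of every MS+EA rat, 0.225 to 0.301, is below that of the other 6 rats, and the Adra1d ratio of C10 is not.

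The genes that supply noradrenaline were mostly at or near the detection limit. Dbh, which makes noradrenaline from dopamine, had 0 to 3 counts per rat, the noradrenaline transporter gene Slc6a2 0 to 3, the adrenaline-making Pnmt 0 to 2 and the vesicular transporter gene Slc18a2 1 to 9. The summed level of the noradrenergic neuron markers was 1.93 to 2.57 CPM in Control, 1.75 to 1.92 CPM in MS and 1.80 to 4.21 CPM in MS+EA, so that MS lay just below Control. Th, the rate-limiting enzyme of catecholamine synthesis, had 38, 34 and 27 counts in Control, 20, 19 and 22 in MS and 21, 23 and 45 in MS+EA. Its log2 fold change was -0.65 for MS against Control (edgeR adjusted p = 0.550) and 0.82 for MS+EA against MS (edgeR adjusted p = 0.390). The latter was 0.29 without C16, the rat with 45 counts. Ddc, the decarboxylase of the same route, was at -0.25 for MS+EA against MS (edgeR adjusted p = 0.703), and without B3 at 0.055, so that its direction rested on that rat.

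No gene of the 5 other lists around the receptors was differentially expressed by limma-trend or by edgeR at its main settings in any comparison. Some other edgeR settings, given in the last section, did call 1 gene in a list. DESeq2 called 1 gene in the breakdown and uptake list and 1 in the Gi/o list, both for MS+EA against Control, where it called 2.07% of all genes. In the list for breakdown and extraneuronal uptake (7 genes tested) the median log2 fold change of MS+EA against MS was -0.12, with 6 of 7 below 0, and against Control it was -0.07, with 5 of 7 below 0. Among all genes 49.9% and 49.1% were below 0. Slc29a4, a plasma membrane monoamine transporter gene, was at -0.78 for MS+EA against Control (SE 0.244, edgeR adjusted p = 0.0816), and Maob, monoamine oxidase B, at -0.18 for MS+EA against MS (edgeR adjusted p = 0.319).

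Downstream of the alpha-1 receptors, 11 of 13 genes of the Gq list were below 0 in MS+EA against MS, with a median of -0.13, against 49.9% of all genes below 0. Against Control 8 of 13 were below 0, with a median of -0.08, against 49.1% of all genes. Gna11, a Gq-class alpha subunit, was at -0.30 against Control (edgeR adjusted p = 0.0624). Downstream of the alpha-2 receptors, 10 of 13 genes were below 0 in MS+EA against MS, also with a median of -0.13, and 10 of 13 against Control, with a median of -0.09. Hcn4 encodes a cation channel opened by membrane hyperpolarization and modulated by cyclic AMP. Its levels were 9.53, 11.3 and 10.6 CPM in Control, 7.35, 9.01 and 8.48 CPM in MS and 7.01, 6.77 and 7.23 CPM in MS+EA. Each MS+EA rat was below each MS rat and each MS rat below each Control rat. Hcn4 fell by 0.58 on the log2 scale in MS+EA against Control (SE 0.142, edgeR adjusted p = 0.0363), just short of 1.5-fold, and adjusted p-values without each rat ran from 0.0396 to 0.0989. Gnai2, an inhibitory G protein alpha subunit, was at -0.26 (edgeR adjusted p = 0.0750).

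In the Gs and cyclic AMP list 19 of 20 genes were tested, of which 13 were below 0 in MS+EA against MS (median -0.05) and 12 against Control (median -0.10). Of all genes 49.9% and 49.1% were below 0. Gnas, the Gs alpha subunit, was listed at 0 in 7 rats, at 3 counts in B3 and at 1 in C3. Most cells use this gene and the treatment of reads with several locations is not known, so these counts are not a measure of its level. Creb1, a transcription factor gene activated through cyclic AMP, was at 69.2, 63.0 and 65.8 CPM in Control, 87.6, 94.8 and 86.8 CPM in MS and 87.9, 96.8 and 88.0 CPM in MS+EA. All 6 separated rats were above the 3 Control rats. Creb1 rose by 0.46 on the log2 scale in MS+EA against Control (SE 0.0721, edgeR adjusted p = 0.00795), below 1.5-fold, and was at 0.44 in MS against Control (SE 0.0718, edgeR adjusted p = 0.0578). Prkaca, a catalytic subunit of protein kinase A, was at -0.17 in MS+EA against Control (edgeR adjusted p = 0.122).

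The list of receptor desensitization and RGS genes holds the kinases and arrestins that uncouple activated receptors. Its 16 symbols stand for 14 genes, all tested, since Grk2 and Grk3 are other names of Adrbk1 and Adrbk2. In MS+EA against MS 9 of 14 were below 0, with a median of -0.08, and against Control 11 of 14, with a median of -0.14. The shares of all genes below 0 were 49.9% and 49.1%. Adrbk1, the beta-adrenergic receptor kinase GRK2, was at 371, 311 and 346 CPM in Control, 351, 330 and 315 CPM in MS and 305, 259 and 270 CPM in MS+EA. The MS+EA rats were below the other 6, at -0.26 against MS (SE 0.0829, edgeR adjusted p = 0.273) and -0.30 against Control (edgeR adjusted p = 0.0525). Arrb1, beta-arrestin 1, was at -0.53 against Control (SE 0.151, edgeR adjusted p = 0.0592), and without A2 at -0.67 with an adjusted p of 0.0353 in edgeR.

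**Figure D5:**
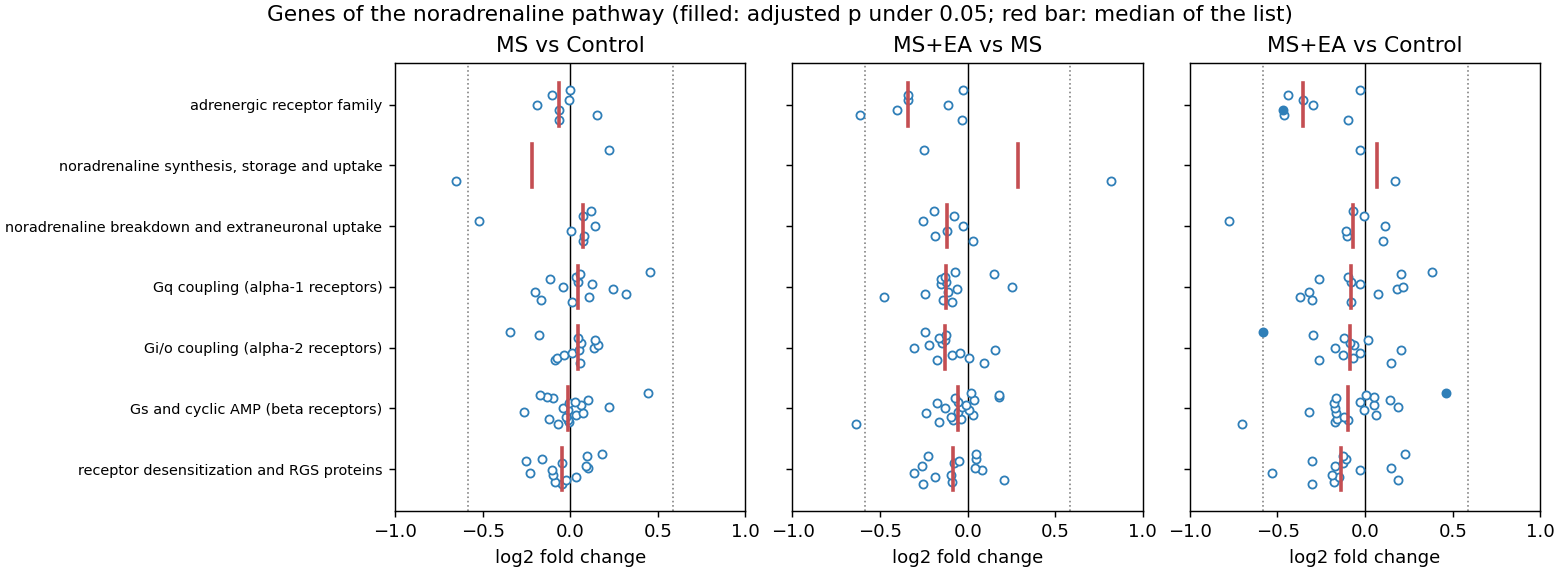
Log2 fold change (horizontal axis) of each tested gene of 7 lists around noradrenaline signalling (rows) in the 3 comparisons; red bars are list medians, dotted lines mark 1.5-fold and filled points have an adjusted p under 0.05. In MS+EA against MS the receptor row lies left of 0, and in MS+EA against Control the filled points are Adra1d, Hcn4 and Creb1.

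Genes with the most similar pattern over the 9 rats were ranked by Pearson's r of log2 CPM, as a description over 13555 mRNA genes, in which library and group are shared by all points. Closest to Adra1b were LOC100911515 (r = 0.965), Nip7 (0.965) and Arl2bp (0.944). Adra1d was closest to B3gat1 (r = 0.985), Itpka (0.972) and Plxna1 (0.968), and Adrb1 to RGD1311739 (r = 0.969), Ppp5c (0.960) and Alad (0.947). The first-ranked genes of the others were Zfp318 for Adra1a (r = 0.956), Leprotl1 for Adra2a (0.947) and Adhfe1 for Adra2c (0.975).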

How the data were processed

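Total RNA of the frontal cortex of 9 rats, 3 per group by the labels, had been sequenced by the authors, who checked reads with FastQC and mapped them with HISAT2 2.0.4 to Rnor_6.0. The deposited values are whole-number counts of reads per gene, without normalization. The program that counted them, its strand setting and its treatment of reads with several locations are not given in the sources used here, so overlapping and antisense genes may share reads.

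The counts were analysed with edgeR 4.0.16 in R 4.3.3: TMM factors, filterByExpr with a minimum count of 10, and 1 quasi-likelihood fit of the 3 group means to the 9 rats. Group differences were then given F tests, with Benjamini-Hochberg adjustment over 16837 genes. Calls needed an adjusted p under 0.05 together with more than a 1.5-fold difference. The study's own test, EBSeq, was not used. Each standard error was taken as the absolute log2 fold change over the root of its F statistic, and intervals are at the 95% level. The common biological coefficient of variation was 12.7%. The floor was 3 counts, and it covers counting error only. Alternatives were DESeq2 1.42.0 (Wald test, and its likelihood ratio test for any group difference), limma-trend (limma 3.58.1), bias-adjusted deviances, RLE size factors, total counts, filters of at least 10 counts in every rat or 1 in any, the 6 rats compared alone, no fold threshold, and the omission of each rat. The fit was tested on simulated data.

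The 6 genes, the pathway lists and the marker lists were chosen with earlier results of these data known. Named besides the members were the other receptor genes, the synthesis genes, genes of a list called in a comparison or else its 2 genes with the smallest p, and for each member the 3 genes of highest correlation with a median CPM of at least 1. Defining markers were named where they were at 0 or their list did not overlap. Some genes that this rule covers are not reported here. Promoters came from RefSeq (GRCr8) and tables were made with Python 3.11.15.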

Additional observations from a re-analysis of the deposited data

How the results depend on the processing

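The number of the 6 receptor genes called in MS+EA against MS went from 0 to 1 with DESeq2 and with the filter of at least 1 count in any rat (Adra1b in both), and that of the whole receptor family list likewise. In MS+EA against Control it went from 0 to 1 with no fold change threshold (Adra1d), and over the omission of each rat it was 0 to 1, with 1 without C3 (Adra2c) and without C10 (Adra1d), for the 6 genes and for the family list. For any group difference the number was 1 with limma-trend (2.13% of all genes) and 3 with DESeq2 (9.08%). It was also 1 with bias-adjusted deviances and with at least 10 counts in every rat, and 3 with at least 1 count in any rat. Over the omission of each rat it was 0 to 1, with 1 without C10. For these other settings the share of all genes is not given here, so their counts cannot be read against it. Among the lists for MS+EA against Control, the count was 1 for breakdown and uptake with DESeq2 and with at least 1 count in any rat, 1 for Gi/o coupling with RLE size factors, DESeq2, at least 1 count in any rat and no fold change threshold, 1 for the Gs list with no fold change threshold, and 0 to 1 for the desensitization list over the omission of each rat, with 1 without A2. The cause was not tested. The other 424 recomputed counts of calls stayed at 0. Over all genes, DESeq2 called 67 against 4 in MS against Control and 30 against 3 in MS+EA against MS, and the filter of at least 1 count in any rat 207 and 72. In MS+EA against Control, RLE size factors called 229 of 16837 genes and no fold change threshold 910 of 16837. The filter of at least 1 count in any rat called 469 of 25954 there, and the fit without A2 154 of 17177.

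Among the 6 receptor genes, directions turned for these log2 fold changes: Adra2c in MS against Control was 0.00017 with limma-trend and -0.14 to 0.12 over the omission of each rat, Adra1a in MS+EA against MS was 0.011 with total counts and -0.081 to 0.052 over the omission of each rat, and Adra2a was -0.36 to 0.015 in MS against Control and -0.22 to 0.071 in MS+EA against MS over the omission of each rat. Of the other named genes, Ddc ran from -0.087 to 0.40 in MS against Control, -0.45 to 0.055 in MS+EA against MS and -0.23 to 0.12 in MS+EA against Control, Th from -0.36 to 0.40 in MS+EA against Control, Creb1 from -0.029 to 0.067 in MS+EA against MS and Adrbk1 from -0.12 to 0.013 in MS against Control, all over the omission of each rat. Adra1b, Adra1d, Adra2c and Adrb1 stayed below 0 in both comparisons of MS+EA under every alternative run. No paired analysis was possible because the groups compared share fewer than 2 replicate numbers and are different rats. The planned correction for transcript GC content was not run and levels per transcript length were not computed, since the reference used here gives neither. Smaller MS+EA libraries limit the low genes most.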
